A study of Mus musculus with 16 samples.

Results

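Cytosolic ribosomal proteins were followed in mouse liver RNA through every array probe whose gene symbol was *Rps* or *Rpl* with a number and at most 1 further letter, or was *Rplp0*, *Rplp1* or *Rplp2*. The rule used no measured value and found 75 of the 25697 probes of the array, for 59 of the 16593 genes named on it. It took in the paralogues *Rps27l*, *Rpl3l* and *Rpl39l* and left out ribosomal proteins that carry other names, such as *Fau* and *Rpsa*. The 16 samples were 8 liver samples labelled AJ (the inbred strain A/J) and 8 labelled C57BL6J (C57BL/6J). Both strains were male, and both ate the high-fat, high-caloric (HFHC) diet, which the study used as a model of fatty liver and which its methods give as 8 wk of feeding. The labels put the mice at 8 weeks and the methods at 8 to 10 wk of age, and neither says whether that is the age before or after feeding. Every sample was on the diet, and chow-fed livers were not analysed here. The methods state that RNA was pooled from 2 mice for each sample, whereas the labels name no pools, so P values measure only the spread between these samples. Total RNA was hybridised to Illumina Mouse Ref 8 arrays, which read a gene through probes of 50 bases, and values are log2 signals after quantile normalization by the authors. The 16 arrays limit the precision, and signals of different probes are not compared with each other.

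A cytosolic ribosome joins a small subunit, which reads the mRNA, to a large subunit, which makes the peptide bond, and each subunit holds ribosomal RNA and a single copy of nearly every ribosomal protein. The stalk proteins of the large subunit, which recruit elongation factors, are the exception in copy number. Most of these mRNAs begin with a run of pyrimidines, the TOP tract, through which nutrient signalling sets their translation, and in liver they are among the most abundant messages. Mammalian genomes also carry many processed copies of ribosomal protein genes, and how far such copies added to the signal of a probe was not tested.

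The probe sequences behind the genes that stood apart, or whose probes went separate ways, are shown by their first 30 bases, 5′ to 3′, as encoded in the deposited table. Capitals mark the part of a run of at least 20 bases that is also found in the promoter of another gene in the RefSeq table. Where on the transcript a probe lies, in an exon of the coding part or in a UTR, is not known here, and whether the strains differ in sequence under a probe was not tested.
*Rpl29* probe ILMN_2730005: gggttaccgtgagtgttggccttacggcat
*Rpl29* probe ILMN_2857570: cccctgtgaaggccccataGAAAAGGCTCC
*Rpl13a* probe ILMN_2707834: ctgtggatagaggggacattagagagctga
*Rps9* probe ILMN_1214918: ggattaattaatacttggctgaactggagg
*Rps9* probe ILMN_2643092: aagatccgtaaggcggcccgggagctgttg
*Rpl23* probe ILMN_2946482: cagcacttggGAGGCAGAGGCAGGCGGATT
The run in the *Rpl29* probe is shared with the promoter of the predicted gene *Gm32064*. That in the *Rpl23* probe is shared with the promoters of *Gm40143*, *Ncoa4* and *Oxa1l* and with the array probe of *Ifngr2*. Only promoters and array probes were searched, so other transcripts that hold these runs were not counted.

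Ribosomal protein mRNAs differed little between the strains as a set. The signal of 1 gene, *Rpl29*, was lower in A/J livers than in C57BL/6J livers by both of its probes, 1.82-fold and at least 5.46-fold. After dim probes were left out (50.8% of all probes were kept, those of highest mean), 62 of the 75 probes and 51 of the 59 genes remained. With the adjusted P (limma, Benjamini-Hochberg over all kept probes) set at no more than 0.05, 16 of the 62 probes differed, or 25.8%, against 26.5% of all kept probes. Of these 9 were higher in A/J, against 14.6% of all kept probes in that direction, and 7 were lower, against 11.9%. The share that differed thus lay near the background of the array in both directions. With a fold change of at least 1.5 in addition, only the 2 probes of *Rpl29* remained, or 3.23%, against 4.86% of all kept probes and 2.96% of them in the lower direction. Counted by gene, with the probe of highest mean for each, 13 of 51 differed, against 28.1% of all genes tested.

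The sizes of the differences were small. The median difference over the 51 genes was 0.04 on the log2 scale (A/J minus C57BL/6J throughout), against 0.01 over all genes tested, and the SD of the differences was 0.20, against 0.34 over all genes. Of the 62 probes, 57 differed by less than 1.2-fold, and so did 12 of the 16 past the adjusted P. The 95% interval of the difference lay within 1.5-fold in either direction for 58 probes, and the 4 that reached beyond it were both *Rpl29* probes, *Rpl13a* and 1 probe of *Rps9*. Of these 58 probes, 5 (both of *Rpl21*, the dimmer of *Rpl27a* and of *Rps19*, and *Rplp0*) lay within 0.5 of the array median, where differences are compressed. A 1.5-fold difference in signal is therefore outside the interval for all 58. For these 5 dim probes the interval does not bound the difference in mRNA. At the bright end, 13 ribosomal protein probes had a mean above 14, and the highest value on the arrays was 14.97. Whether differences between such bright signals were compressed as well was not tested. The spread between samples was similar to that of the array, with a median pooled SD of 0.120 over the ribosomal protein probes and 0.126 over all kept probes.

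**Figure D1:**
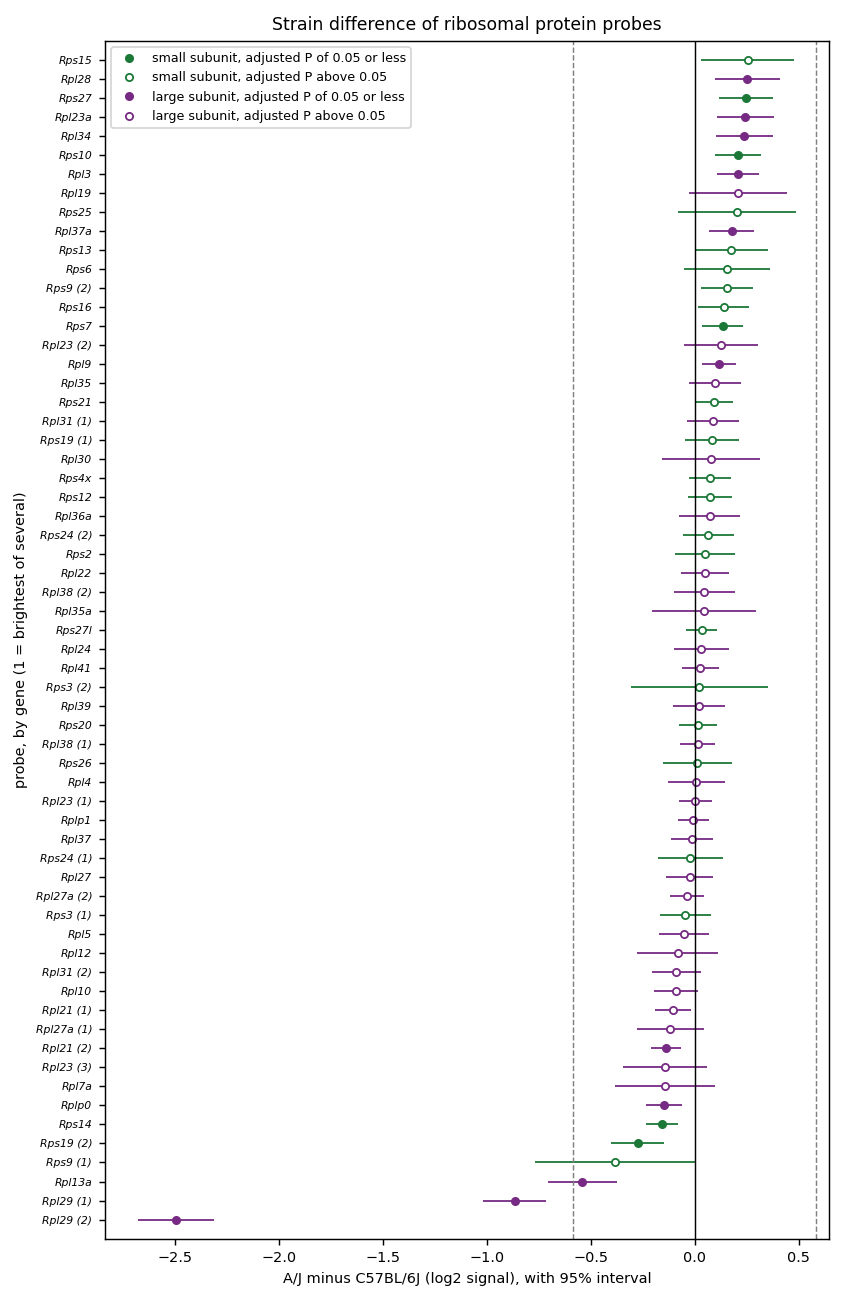
Difference between A/J and C57BL/6J (log2 signal, A/J minus C57BL/6J) of the 62 kept ribosomal protein probes, ranked, with 95% intervals; dashed lines mark 1.5-fold in either direction, and the number after a gene ranks its probes by mean signal. Both *Rpl29* probes lie beyond the lower line at -0.87 and -2.50, while 57 of the probes lie within 1.2-fold.

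In each sample, the median signal over the 51 genes was taken as the level of the set. It was 13.58 ± 0.0647 in A/J livers and 13.49 ± 0.0760 in C57BL/6J livers (SD, n = 8 each), a difference of 0.09. By the mean over the same genes the levels were 13.00 ± 0.0418 in A/J livers and 12.98 ± 0.0588 in C57BL/6J livers, a difference of 0.02. Single samples ran from 13.48 to 13.67 in A/J and from 13.37 to 13.59 in C57BL/6J by the median, so the strains overlapped. The 20 small subunit genes had a median difference of 0.08, with 3 higher and 1 lower at the adjusted P (20% together). The 31 large subunit genes had a median of 0.02, with 6 higher and 3 lower (29% together). Of all genes tested 28.1% passed. In bulk liver, fewer cells of a type and less RNA per cell cannot be told apart, and quantile normalization removes any difference in total signal.

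*Rpl29* encodes a protein of the large subunit that is also known as a heparin-binding protein of the cell surface, and mice that lack it are viable but small. The gene lies at chr9:106428889-106431568 (GRCm38.p6). By its brighter probe, ILMN_2857570, A/J livers had a signal of 10.95 to 11.35 (median 11.03), and C57BL/6J livers one of 11.80 to 12.17 (median 12.01). Every A/J sample was below every C57BL/6J sample. The means were 11.12 ± 0.178 in A/J and 11.99 ± 0.111 in C57BL/6J (SD, n = 8 each), a difference of -0.87 (SE 0.0713, 1.82-fold, adjusted P = 4.56e-08). By its other probe, ILMN_2730005, A/J livers had 7.92 to 8.00 (median 7.96), and C57BL/6J livers 10.06 to 10.78 (median 10.50). All 8 A/J values lay at or below the array median of 8.01, so that this probe gave no signal above the middle of the array in A/J, and again the strains did not overlap. The means were 7.97 ± 0.0319 in A/J and 10.46 ± 0.261 in C57BL/6J, a difference of -2.50 (SE 0.0874, 5.64-fold, adjusted P = 2.72e-13). Taken against the array median in place of the A/J signal, the difference was at least 2.45, or at least 5.46-fold. An exact permutation test of each probe over the samples (two-sided) gave P = 0.000155, the smallest that 8 against 8 samples allow.

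The probes of *Rpl29* therefore gave the same direction and unlike sizes, at least 1.58 apart on the log2 scale with the array median in place of the A/J signal of the dimmer probe. The longest run of bases they share was 5, so they read separate stretches. Within A/J the brighter probe fell into a lower group of 5 samples (1 to 4 and 7, up to 11.03) and a higher group of 3 (5, 6 and 8, from 11.32). Among samples numbered 1 to 4 the differences were -1.05 by the brighter probe and -2.70 by the other, and among samples 5 to 8 they were -0.68 and -2.29. Both passed the adjusted P and 1.5-fold in each of these sets of 4. Of the 16 other genes tested within 1 Mb on either side of the gene, 4 were higher and 5 lower at the adjusted P, or 9 in all, against 28.1% of all genes tested, with differences between -1.03 and 0.90. At 1.5-fold in addition 3 passed, against 5.29% of all genes tested.

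*Rpl13a* was the next gene below the set. Its protein belongs to the large subunit, can leave the ribosome after interferon signalling to silence inflammatory mRNAs, and its mRNA is often used as a reference in qPCR. The gene lies at chr7:45125563-45128745 and has 1 probe. A/J livers had 9.58 to 9.97 (median 9.82), and C57BL/6J livers 10.14 to 10.73 (median 10.28). The strains did not overlap. Its means were 9.82 ± 0.119 in A/J and 10.36 ± 0.20 in C57BL/6J (SD, n = 8 each), a difference of -0.54 (SE 0.0782, 1.45-fold, adjusted P = 4.23e-05), with an exact permutation P of 0.000155. It was -0.54 both among samples 1 to 4 and among samples 5 to 8. With a single probe, its direction has no second reading on this array. *Rpl13a* and both probes of *Rpl29* were the 3 of 62 probes, or 4.84%, whose strains did not overlap, against 8.51% of all kept probes.

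**Figure D2:**
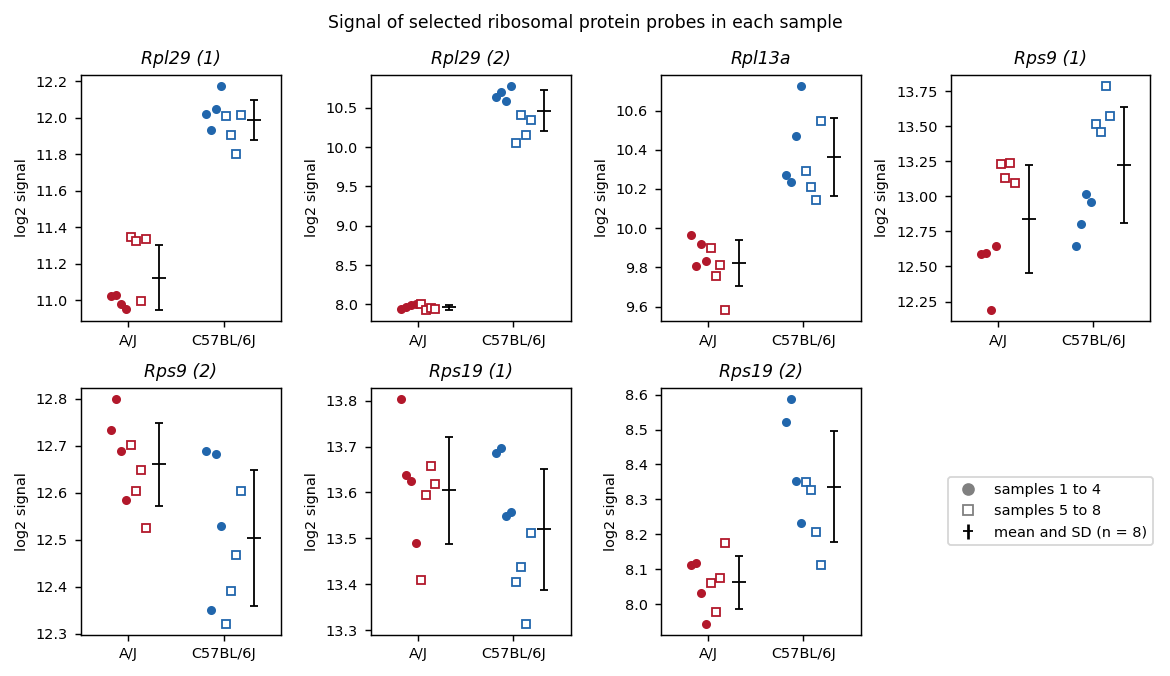
Log2 signal in each of the 8 A/J samples (left in each panel) and 8 C57BL/6J samples for *Rpl29*, *Rpl13a*, *Rps9* and *Rps19*, with mean and SD beside the points; panels differ in scale, and the number after a gene ranks its probes by mean signal. Both *Rpl29* panels and *Rpl13a* show no overlap of the strains, and *Rps9* (1) shows samples 5 to 8 above samples 1 to 4 in both strains.

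Whether single genes stood apart from the set itself was asked by subtracting the median of the 51 genes in each sample and fitting all probes again. This lowers every difference alike, by 0.09, so small differences shift with it and are not read here. Of the 62 ribosomal protein probes, 3, or 4.84%, differed from the set by at least 1.5-fold at the adjusted P, against 5.28% of all kept probes. These were *Rpl29* at -0.96 and -2.59 and *Rpl13a* at -0.63 (adjusted P = 1.71e-06). With the mean as the level of the set, which differed between the strains by 0.02, *Rpl13a* no longer reached 1.5-fold and the 2 probes of *Rpl29* remained.

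*Rps9*, an early-assembling protein of the small subunit, had 2 bright probes that went opposite ways. The gene lies at chr7:3703954-3706897. Probe ILMN_2643092 had 12.53 to 12.80 (median 12.67) in A/J and 12.32 to 12.69 (median 12.50) in C57BL/6J, a difference of 0.16 (SE 0.0594, adjusted P = 0.0620). Probe ILMN_1214918 had 12.19 to 13.24 (median 12.87) in A/J and 12.65 to 13.79 (median 13.24) in C57BL/6J, a difference of -0.38 (SE 0.183, adjusted P = 0.142). The strains overlapped for both, and neither difference passed the test. The second probe moved with sample number. In A/J, samples 1 to 4 had 12.19 to 12.65 and samples 5 to 8 had 13.09 to 13.24, and in C57BL/6J samples 1 to 4 had 12.65 to 13.02 and samples 5 to 8 had 13.46 to 13.79. With these sets of samples as a block, the adjusted P was 0.000510 for ILMN_1214918 and 0.0401 for ILMN_2643092, so that both probes then passed in opposite directions. Over the 12 alternatives run other than leaving out single samples, the adjusted P ran from 0.000510 to 0.256 for ILMN_1214918 and from 0.0401 to 0.324 for ILMN_2643092. The labels do not say what the sample numbers stand for, and the part of the numbering in the result was not tested further.

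Samples 1 to 4 and 5 to 8 were also apart, without overlap in either strain, for 3 more of the 62 probes. The 4 probes make up 6.45%, against 5.97% of all kept probes, each apart in the same direction in both strains. The share over all kept probes measures the same split across the whole array, and is not a level free of it. The split was therefore not particular to ribosomal proteins. The main fit held the strain alone and left this split in the spread between samples. *Rps15*, whose protein is needed for export of the small subunit from the nucleus, had 12.47 to 12.59 in A/J samples 1 to 4 and 12.21 to 12.32 in A/J samples 5 to 8. In C57BL/6J it had 12.30 to 12.42 in samples 1 to 4 and 11.57 to 12.03 in samples 5 to 8. Its strain difference of 0.25 did not pass (SE 0.107, adjusted P = 0.0917) but did with the sets as a block (adjusted P = 0.00500, within a range of 0.00500 to 0.233 over these alternatives). The dimmer probe of *Rps3*, a small subunit protein at the mRNA entry that also acts in DNA repair, was higher in samples 5 to 8. The rise was 0.54 in A/J and 0.61 in C57BL/6J, and the strains differed by 0.02 (SE 0.157, adjusted P = 0.943). The brighter *Rps3* probe was higher in samples 5 to 8 by 0.005 in A/J and 0.10 in C57BL/6J, so it did not share the split. *Rpl35a*, a large subunit protein, was higher in samples 5 to 8 by 0.30 in A/J and by 0.57 in C57BL/6J, with a strain difference of 0.04 (SE 0.119, adjusted P = 0.834). These probes were chosen after their values were seen. Over all 62 probes, 48 had the same sign of the strain difference among samples 1 to 4 as among samples 5 to 8. The share over all kept probes was not computed, so this count says nothing particular to ribosomal proteins.

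**Figure D3:**
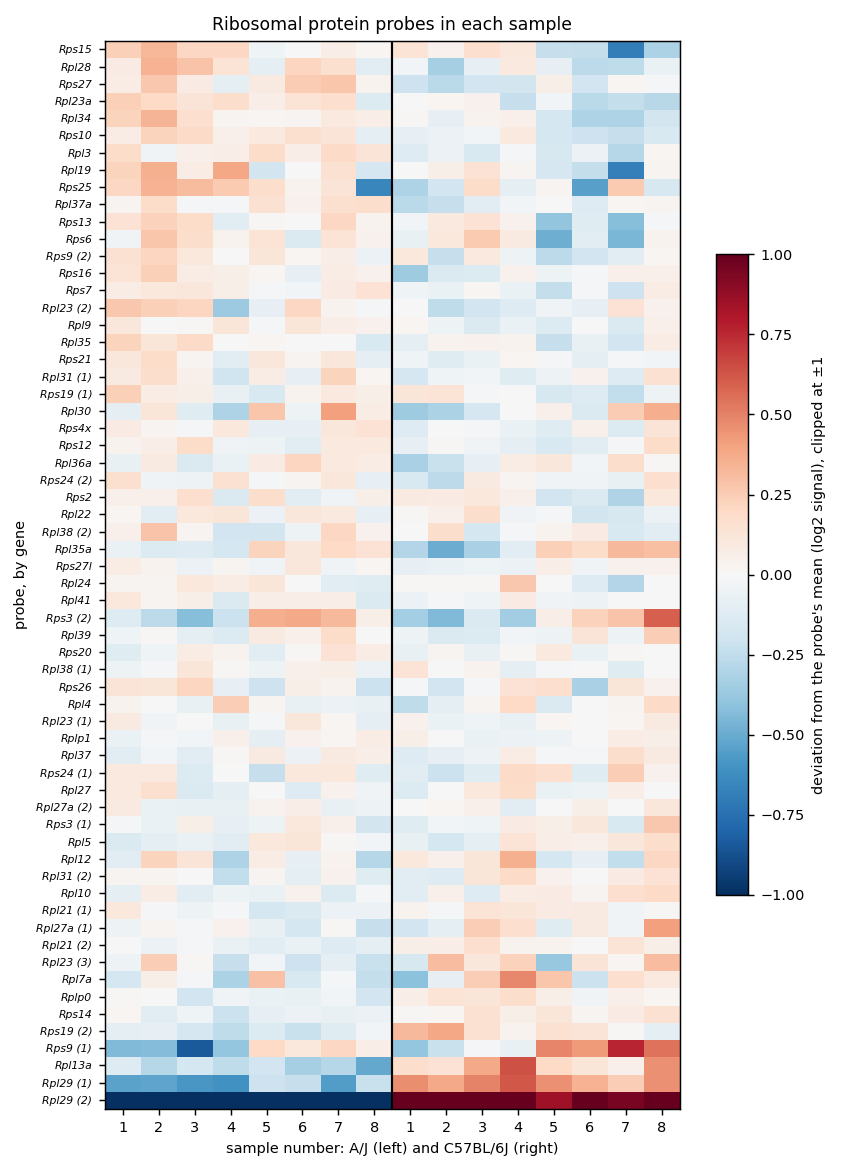
Deviation of each kept ribosomal protein probe (rows, in order of strain difference) from its own mean over 16 samples, in log2 signal clipped at ±1, with A/J samples 1 to 8 on the left and C57BL/6J samples 1 to 8 on the right. The bottom 3 rows, *Rpl13a* and *Rpl29*, are low in all A/J samples and high in all C57BL/6J samples, and *Rps9* (1) separates samples 1 to 4 from 5 to 8.

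*Rps19*, a protein of small subunit maturation whose human gene is mutated in Diamond-Blackfan anaemia, was also split between its probes. By the bright probe, ILMN_2862280, A/J livers had 13.41 to 13.80 (median 13.62) and C57BL/6J livers 13.31 to 13.70 (median 13.53), a difference of 0.09 (SE 0.0614, adjusted P = 0.357). By the dim probe, ILMN_2754355, A/J livers had 7.94 to 8.17 (median 8.07) and C57BL/6J livers 8.11 to 8.59 (median 8.34), a difference of -0.27 (SE 0.0612, adjusted P = 0.00252). The strains overlapped in both, and the dim probe lay close to the array median in A/J.

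Among the 10 genes with several kept probes, 12 pairs of probes could be set side by side. Both probes passed the adjusted P in 1 pair, that of *Rpl29*, exactly 1 probe passed in 2 pairs (*Rps19* and *Rpl21*), and none in 9 pairs. The signs differed in 7 pairs, and in 8 pairs the differences lay within 0.2 of each other. Apart from *Rps19*, neither probe passed in the pairs whose signs differed, so their signs alone are not read as disagreement. The longest run of bases shared by partner probes was 25, in *Rpl27a*, whose differences were -0.12 and -0.04. *Rpl23*, a large subunit protein that binds the p53 regulator MDM2, had 3 kept probes with differences of 0.00, 0.13 and -0.14, none past the adjusted P. The probe at 0.13 is the one whose run recurs in other genes, and how much of its signal came from *Rpl23* was not tested. Both probes of *Rpl21*, another large subunit protein, were dim, with differences of -0.10 (SE 0.0416, adjusted P = 0.0771) and -0.14 (SE 0.0332, adjusted P = 0.00450).

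The 9 probes that were higher in A/J rose by 0.12 to 0.25. *Rpl28*, a large subunit protein without a bacterial counterpart, had 13.62 to 14.08 (median 13.88) in A/J and 13.40 to 13.83 (median 13.65) in C57BL/6J, a difference of 0.25 (SE 0.0741, adjusted P = 0.0159). *Rps27*, a zinc-finger protein of the small subunit, had 13.66 to 14.03 (median 13.84) in A/J and 13.48 to 13.81 (median 13.57) in C57BL/6J, a difference of 0.25 (SE 0.0623, adjusted P = 0.00633). In both genes the upper C57BL/6J samples reached into the A/J range. *Rpl23a*, which sits at the exit of the peptide tunnel where the signal recognition particle docks, had 12.70 to 13.08 (median 13.00) in A/J and 12.56 to 12.88 (median 12.71) in C57BL/6J, a difference of 0.24 (SE 0.0643, adjusted P = 0.00845). *Rpl34*, of the large subunit, had 12.77 to 13.09 (median 12.83) in A/J and 12.44 to 12.80 (median 12.62) in C57BL/6J, a difference of 0.24 (SE 0.0643, adjusted P = 0.00948).

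Of the others that rose, *Rps10*, which is ubiquitinated when ribosomes collide, and *Rpl3*, which reaches the peptidyl transferase centre, both differed by 0.21 (adjusted P = 0.00611 and 0.00296). *Rpl37a*, *Rps7* and *Rpl9* rose by 0.18, 0.13 and 0.12 (adjusted P = 0.0159, 0.0382 and 0.0319). Without the 3 samples high in pancreas markers, described with the tissue markers, *Rpl28* and *Rpl23a* no longer passed (0.23 with adjusted P = 0.0803, and 0.21 with adjusted P = 0.0591). Over all 12 alternatives their adjusted P ran from 0.00867 to 0.149 for *Rpl28* and from 0.00236 to 0.0596 for *Rpl23a*. The largest of the differences that did not pass was that of *Rps15*, and the lowest that of the *Rps9* probe at -0.38.

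Beside *Rpl29* and *Rpl13a*, small falls passed the adjusted P for *Rps14* and *Rplp0*. *Rps14*, a small subunit protein whose human gene is lost in the 5q- syndrome, had 13.92 to 14.15 (median 14.06) in A/J and 14.14 to 14.29 (median 14.20) in C57BL/6J, a difference of -0.16 (SE 0.0373, adjusted P = 0.00398). *Rplp0*, the base of the stalk and another common qPCR reference, was dim, with 8.28 to 8.49 (median 8.42) in A/J and 8.44 to 8.65 (median 8.54) in C57BL/6J, a difference of -0.15 (SE 0.0414, adjusted P = 0.0126). In both genes only the edges of the strains' ranges met. The other probe of *Rplp0* was below the filter, with a mean of 7.89 and an untested difference of -0.04. Of the 2 other stalk genes tested, *Rplp1*, which carries the tip that elongation factors touch, differed by -0.01 (SE 0.0359) and *Rpl12*, at the foot of the stalk, by -0.08 (SE 0.0919), neither past the test. *Rpl5*, which carries 5S RNA into the ribosome and binds MDM2, differed by -0.05 (SE 0.0560, adjusted P = 0.571).

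Of the ribosomal protein mRNAs in common use as qPCR references, 3 were tested. *Rpl13a* and the dim kept probe of *Rplp0* were lower in A/J, and *Rpl19*, at the tunnel exit, did not pass the test. It had 11.30 to 11.87 (median 11.59) in A/J and 10.80 to 11.62 (median 11.50) in C57BL/6J, a difference of 0.21 (SE 0.112, adjusted P = 0.195). The 5 tunnel exit genes tested had a median difference of 0.10 with 1 (20%), *Rpl23a*, higher. None of the 4 X-linked genes passed the adjusted P, with a median of 0.05. Of all genes tested 28.1% passed, and lists of 3 to 5 genes are too small to set against that share. The 3 genes with the brightest probes, an order of probes and not of mRNA levels, were also described. *Rpl41*, the smallest ribosomal protein, differed by 0.03 (SE 0.0425), *Rplp1* by -0.01, and the p53 target *Rps27l*, a paralogue of *Rps27*, by 0.03 (SE 0.0356). *Rpl7a* differed by -0.14 (SE 0.114, adjusted P = 0.409).

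The 8 genes with no kept probe were *Rpl14*, *Rpl17*, *Rpl39l*, *Rpl3l*, *Rpl6*, *Rplp2*, *Rps15a* and *Rps23*. Together with the dim second probes of other genes they make up 13 probes below the filter, and without a test their differences ran from -0.05 to 0.03. *Rpl6*, *Rpl14* and *Rps23* among them encode core proteins of the ribosome, and a dim probe does not show a low level of the mRNA.

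**Figure D4:**
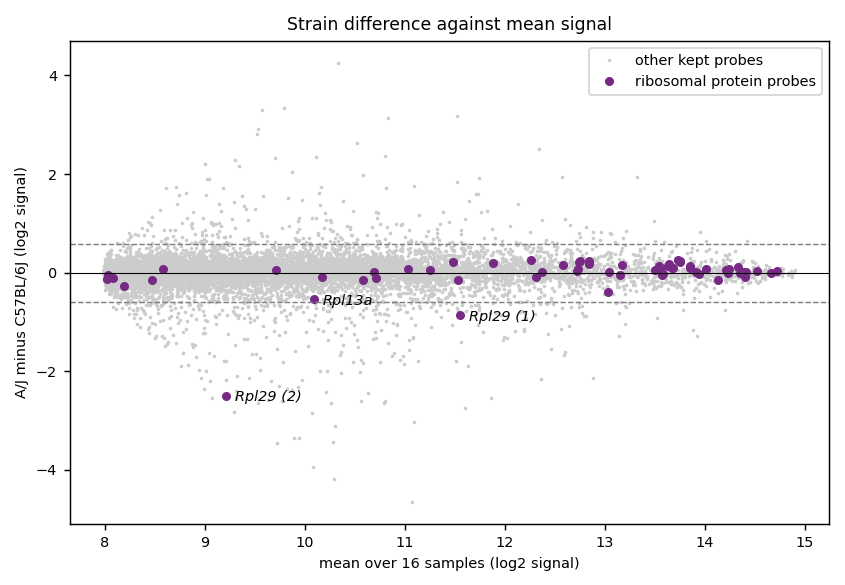
Strain difference (A/J minus C57BL/6J) against the mean over 16 samples, both in log2 signal, for the ribosomal protein probes and all other kept probes, with dashed lines at 1.5-fold in either direction. Most ribosomal protein probes sit at the bright end, 13 of them above 14, and the *Rpl29* probes and *Rpl13a* lie below the rest.

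Among the 27025 promoters of the RefSeq table (GRCm38.p6, 250 bases before to 50 after the start), 50 of the 59 genes had an entry. The letters CTTTCC, read along the gene, are a short form of the TOP-like tract. They stood in the 40 bases at the start of 16% of the 50, against 1.9% of all promoters. With GGAAAG, the same letters on the other strand, counted too, the shares there were 16% against 3.5%. Anywhere in the 300 bases, where the letters need not belong to a TOP tract, they were 46.0% against 26.3% on either strand. The letters CCGGAAG (or CTTCCGG), read by ETS-family factors, stood in 38.0% of the 50 against 9.1%. TATAAA (or TTTATA) stood in 8.0% against 14.2%, and CCAAT (or ATTGG) in 32% against 37.9%. A GGAA shared by the first and second of these cannot complete both. The 15 bases before and 15 from the start that the table gives are shown for 4 genes with results above, with CTTTCC in capitals where present. For *Rps9* the table's start lies inside the span given for the gene above.
*Rpl13a*, chr7:45128731-45128760, minus strand: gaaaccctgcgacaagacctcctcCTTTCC
*Rps27*, chr3:90213634-90213663, minus strand: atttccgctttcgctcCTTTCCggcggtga
*Rpl28*, chr7:4792950-4792979, plus strand: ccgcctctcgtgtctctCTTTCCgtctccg
*Rps9*, chr7:3704026-3704055, plus strand: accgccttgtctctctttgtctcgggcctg
The motif stood in a gene that was lower in A/J (*Rpl13a*) and in genes that were higher (*Rps27*, *Rpl28*), and no factor's binding was measured.

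The other translation lists are given by their counts and medians, beside the 28.1% of all genes tested that passed the adjusted P and the 5.29% that also passed 1.5-fold. Of the 6 genes tested that encode ribosomal proteins or paralogues under other names or beside the main gene (*Rps27l* included), 1 was higher (16.7%), and the median difference was 0.03. The higher gene was *Fau*, which encodes a ubiquitin-like protein fused to a small subunit protein, at 13.20 ± 0.140 in A/J and 12.82 ± 0.139 in C57BL/6J, a difference of 0.37 (SE 0.0674, adjusted P = 0.000414). Of 70 mitochondrial ribosomal protein genes, 13 were higher and 6 lower (27.1% together) with a median of 0.06, and 2 passed 1.5-fold. These were *Mrps12*, near the decoding site of the mitochondrial ribosome, at -1.37 (SE 0.0795, adjusted P = 3.90e-10), and *Mrpl27*, of its large subunit, at -1.34 (SE 0.0675, adjusted P = 5.42e-11). The largest rise there was that of *Mrpl3*, at 0.56 (SE 0.0735, adjusted P = 1.62e-05).

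Of 14 elongation factors and other TOP mRNAs, 2 were higher and 1 lower (21.4% together) with a median of 0.09. *Nap1l1*, a histone chaperone, differed by -0.54 (adjusted P = 1.67e-05), *Eef1d*, of the exchange factor for eEF1A, by 0.22 (adjusted P = 0.00733), and *Eif3h*, an initiation factor subunit listed here, by 0.13 (adjusted P = 0.0120). Of 24 initiation factors 1 (4.17%) was lower, the cap-binding *Eif4e* at -0.44 (adjusted P = 8.53e-06), with a median of -0.07. *Eif4e* (8.19 in A/J and 8.63 in C57BL/6J) and *Eif3h* (8.21 and 8.08) lay near the array median of 8.01, where differences are compressed. Of 29 ribosome biogenesis genes 1 (3.45%) was higher, *Utp4*, of the small subunit processome, at 0.21 (adjusted P = 0.0185), with a median of -0.01.

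**Figure D5:**
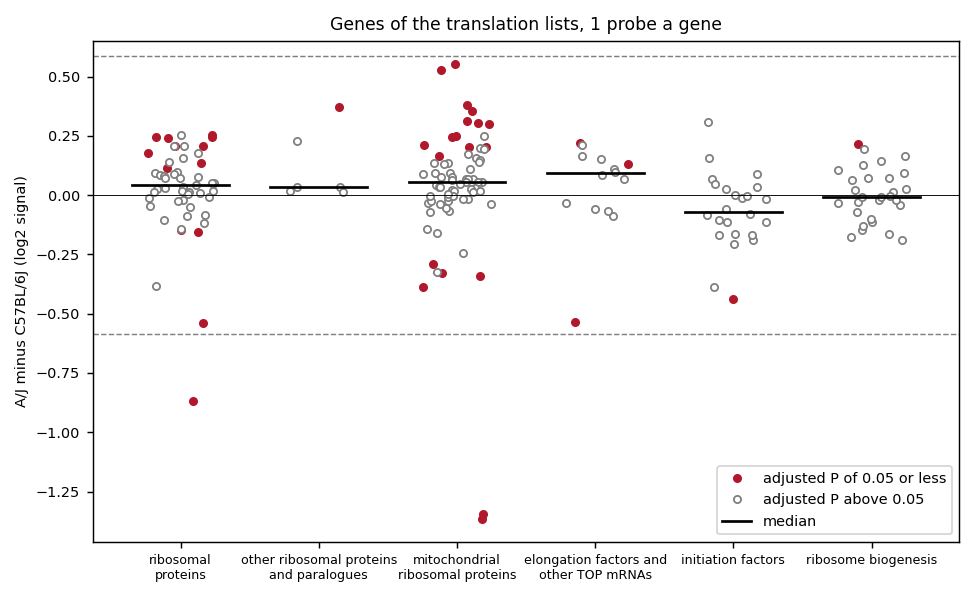
Strain difference (A/J minus C57BL/6J, log2 signal) of the genes of each translation list, 1 probe a gene, with the median as a bar, filled points at an adjusted P not above 0.05 and dashed lines at 1.5-fold. The medians lie between -0.07 and 0.09, and the points beyond 1.5-fold are *Rpl29*, *Mrps12* and *Mrpl27*.

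Markers of the tissue were checked beside these results. The 17 hepatocyte genes tested averaged 14.1 to 14.3 in A/J samples and 14.1 to 14.2 in C57BL/6J samples. In both strains samples 1 to 4 lay below samples 5 to 8 without overlap. The averages were 14.14 to 14.18 against 14.22 to 14.28 in A/J, and 14.09 to 14.14 against 14.19 to 14.23 in C57BL/6J. Between the strains, 1 hepatocyte gene (5.88%) passed the adjusted P, *Cps1* at 0.28 (adjusted P = 0.0158). The 17 exocrine pancreas genes averaged 10.58 and 10.43 in A/J samples 4 and 7 and 12.24 in C57BL/6J sample 7, and 8.10 to 8.77 in the other 13. Of these genes 1 (5.88%) passed the adjusted P between the strains, *Cela1* at 1.25 (adjusted P = 0.0105). The 4 red cell genes tested averaged 11.3 to 11.8 in A/J and 10.7 to 10.9 in C57BL/6J, without overlap. That gap came mostly from *Hbb-b2*, a beta globin gene, at 2.29, while *Slc4a1* differed by 0.34, *Hba-a1* by 0.07 and *Alas2* by -0.12, the last 2 not past the adjusted P. The 9 macrophage genes averaged 9.98 to 10.6 in A/J and 10.2 to 10.5 in C57BL/6J. Of these 2 (22.2%, against 28.1% of all genes tested) were lower in A/J at the adjusted P. They were *C1qb* at -0.60 (adjusted P = 0.00221) and *C1qa* at -0.39 (adjusted P = 0.00594). The 5 lymphocyte genes lay near the array median, at 8.05 to 8.28 in A/J and 8.07 to 8.21 in C57BL/6J. Without the 3 samples high in pancreas genes, *Rpl29* differed by -0.84 and -2.54 and *Rpl13a* by -0.57, all past the adjusted P. The part of these marker genes' differences, between strains or between sets of sample numbers, in the ribosomal protein results was not tested.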

How the data were processed

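Liver RNA of 8 A/J and 8 C57BL/6J samples was hybridised to Illumina Mouse Ref 8 arrays. The authors read the scans with BeadStudio and applied quantile normalization in lumi (versions and exact transform: not given in the sources used here). They deposited 25697 probes as log2 values. Once sorted, no 2 columns were more than 0.00086 apart, and totals of signal therefore carry no information. The methods kept 13060 probes by detection P, and here the 13060 probes of highest mean stood in for them, down to a mean of 8.00. A second deposited table encodes each probe sequence, and all were decoded.

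Gene symbols came from the platform's annotation (a single symbol for 23978 probes and none for 1719), and all 75 ribosomal protein probes were matched to RefSeq (GRCm38.p6) by Entrez ID. Differences, A/J minus C57BL/6J, were fitted with limma 3.58.1 (lmFit and eBayes, 14 residual degrees of freedom) in R 4.3.3 with the data.table package (version 1.17.8) and Benjamini-Hochberg adjustment over all kept probes. A call needed an adjusted P not above 0.05 and, where stated, a fold change of at least 1.5. The comparison was tested on simulated data. Sequences and figures were made in Python 3.11.15 with numpy 2.4.6, pandas 2.3.3 and matplotlib 3.10.9. For a gene with several probes, the kept probe of highest mean stood for it. Members, gene lists and alternatives were chosen with earlier results of these data known. The genes named were those called at 1.5-fold, the 12 farthest from the set median, those of several probes with at least 1 past the adjusted P, the stalk, 5S and qPCR reference genes, the 3 of highest mean, and up to 3 of each other translation list. Other filters, normalizations, fits, thresholds and sample subsets were tried as alternatives.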

Additional observations from a re-analysis of the deposited data

Results flagged for a closer look

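Within a strain, 3 single values of the named genes lay apart from the other 7 samples, out of 50 groups of 8 tested with Dixon's ratio, a rule under which chance marks about 1 group in 20. *Rpl23a* was at 12.70 in A/J sample 8, where the next sample was at 12.91. *Rpl19* was at 10.80 in C57BL/6J sample 7, where the next was at 11.24, and this sample is also the one with the highest pancreas genes. *Rpl41* was at 14.81 in C57BL/6J sample 4, where the next was at 14.73.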

How the results depend on the processing

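The median difference of the ribosomal protein genes stayed between 0.03 and 0.06 in every alternative run. The 16 probes past the adjusted P became 6 (2 higher, 4 lower) with only samples 1 to 4 and 9 (4 higher, 5 lower) with only samples 5 to 8, where fewer samples enter, and 14 to 17 when 1 sample was left out. At a fold of at least 2, 1 *Rpl29* probe was called and 1 stood apart from the set. At 1.2-fold, 4 probes were called (*Rpl29*, *Rpl13a* and *Rps19*) and 5 stood apart (with *Rps9*). Leaving out 1 sample left 2 called and 3 apart. Sample numbers are shared by the strains, but the labels do not state that they pair, so the numbers were not taken as pairs. Same-number deviations correlated from -0.01 to 0.54, with 6 of 8 pairs over 0.1. Of the 8 A/J samples, 3 correlated best with their own number. With the number as a replicate block, 18 probes passed, the 16 among them, with 2 called, 3 apart and a median of 0.04, and *Rps9* ILMN_1214918 and *Rps15* passed at adjusted P = 0.00272 and 0.0204. With samples 1 to 4 and 5 to 8 as a block 20 passed. Shares over all kept probes are not given for these alternatives, so their counts say nothing particular to ribosomal proteins. No direction of a called probe reversed. For single probes, 640 of the values under an alternative kept their side of the threshold, 15 lost it and 13 gained it. Within these sets of 4 alone, *Rpl28*, *Rpl23a*, *Rplp0* and the *Rpl21* probe lost their calls in both. Scaling moved the median of all probes by under 0.001. Dim probes near the array median limit falls of *Rplp0*, *Rpl21*, *Rpl27a*, *Rps19* and the second *Rpl29* probe.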
